A study of Mus musculus with 6 samples.

Results

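The mRNAs of 10 protein kinase genes that act on serine- and arginine-rich (SR) splicing factors, or are close relatives of those that do, were followed in mouse hearts that lack *Clk4* in cardiomyocytes. They are *Clk1*, *Clk2*, *Clk3* and *Clk4* of the CDC-like kinase family, *Srpk1*, *Srpk2* and *Srpk3* of the SR protein kinase family, *Dyrk1a*, *Dyrk1b* and *Prpf4b*. Every non-control probe whose annotated gene symbol is one of these names was taken, which gave 26 probes among the 56605 of the array, or 10 of 27307 annotated genes. All 6 hearts came from male C57BL/6J mice of the *Clk4*-cKO genotype, in which tamoxifen-activated MerCreMer, driven by the α-MHC promoter, removes part of a floxed *Clk4* gene in cardiomyocytes. Other cells of the heart keep the gene. The 3 control mice had received AAV NEXN-WT, a serotype 9 vector with wild-type *Nexn* under the CMV promoter and GFP behind a P2A sequence. The 3 treated mice had received the same vector with NEXN-S437E, in which glutamate replaces the serine that CLK4 phosphorylates. Animals without the deletion and animals without a vector were not analysed here, so neither the loss of *Clk4* nor the effect of the vector itself can be read from these arrays. The comparison asks whether the messages of CLK4 and of kinases related to it differed between hearts given the phospho-mimic and hearts given wild-type NEXN.

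CLK kinases are nuclear enzymes that phosphorylate the arginine- and serine-rich domain of SR proteins and release them from nuclear speckles. SRPK kinases phosphorylate the same domain mainly in the cytoplasm, which lets the import receptor transportin-3 carry SR proteins into the nucleus. DYRK1A and DYRK1B are related kinases with both tyrosine autophosphorylation and serine/threonine activity, and PRPF4B is a spliceosome-associated kinase. Transcripts of *Clk1* and *Clk4* are themselves alternatively spliced, and SRPK3 is known as the member enriched in heart and skeletal muscle.

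A probe of this array is a DNA strand that binds 60 bases of a labelled message, so paralogs with shared sequence can in principle share signal. Ungapped alignment of all probes between different CLK genes found 1 pair that stood out, while the next closest matched at 20 of 40 bases. It joins a *Clk2* probe and a *Clk4* probe, which match at 31 bases of a 47-base stretch (66.0%). The *Clk2* probe A_52_P41894 lies at chr3:88974261-88974320 on the plus strand and the *Clk4* probe A_52_P128262 at chr11:51088746-51088805 on the plus strand of mm9. They are shown because they are the most alike CLK probes on the array, with the 16 differing bases in capitals.
Clk2 A_52_P41894: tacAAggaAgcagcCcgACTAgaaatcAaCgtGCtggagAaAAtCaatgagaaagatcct
Clk4 A_52_P128262: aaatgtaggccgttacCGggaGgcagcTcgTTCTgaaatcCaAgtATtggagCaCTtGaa
The *Clk1* probe A_52_P679152 and the *Clk4* probe A_52_P445387, on which the comparison of these genes rests, matched at 22 of 57 bases (38.6%). Of the 26 probes, 4 span more genome than their own length and so cross an intron: *Clk1* A_52_P679152, *Clk2* A_51_P363951 and *Srpk2* A_55_P2431862 and A_52_P602771. No genome of the files' build was used, so the other probes were not placed in exons, and whether any *Clk4* probe lies inside the deleted part was not determined. The *Clk4* signal is therefore no check of the knockout.

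Values are given as log2 signal after subtracting the 75th percentile of the detected probes of the same array, so that 0 is a bright probe and −5 is dim. Levels of different probes cannot be set against each other, because probes differ in how strongly they bind. A probe was tested when 1 group or both had all 3 of their arrays well above background. That held for 20 of the 26 probes, with at least 1 for each of the 10 genes, and 19 were well above background on all 6 arrays. Of the 6 untested probes, 4 were not well above background on any array, namely *Srpk2* A_52_P584985, *Dyrk1a* A_52_P65097 and A_55_P2143202, and *Prpf4b* A_51_P127425. The other 2 were *Clk4* A_52_P368396, measured on 1 NEXN-WT and 1 NEXN-S437E array, and *Clk4* A_52_P128262, measured on 1 and 2. The annotation gives a RefSeq record for 20 probes, of which 18 were tested, and only other cDNAs for 6, of which 2 were tested.

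None of the 20 kinase probes passed any threshold. With limma, no probe reached a Benjamini-Hochberg adjusted p of 0.05, which 0.148% of all 22998 tested probes did (34). No probe met the thresholds of the study, a 2-fold change at an unadjusted p of 0.05, as 2.57% of tested probes did, and none passed the unadjusted p by itself, as 16.4% did (7.89% higher and 8.54% lower). At such rates fewer than 1 of 20 probes would be called by the first pair of rules, so a count of 0 there is near the background. The log2 fold changes of NEXN-S437E over NEXN-WT ran from −0.42 for a *Clk1* probe to 0.40 for the *Srpk3* probe, 11 positive and 9 negative, with a median of 0.03 against 0.01 over all tested probes. Their median absolute size was 0.08, against 0.21 over all tested probes, while their median SE was 0.20, against 0.18. For 19 of the 20 probes the 95% interval of the difference lay within 2-fold either way, which held for 82.5% of all tested probes. The exception was *Srpk3*, with an interval from −0.22 to 1.02.

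**Figure D1:**
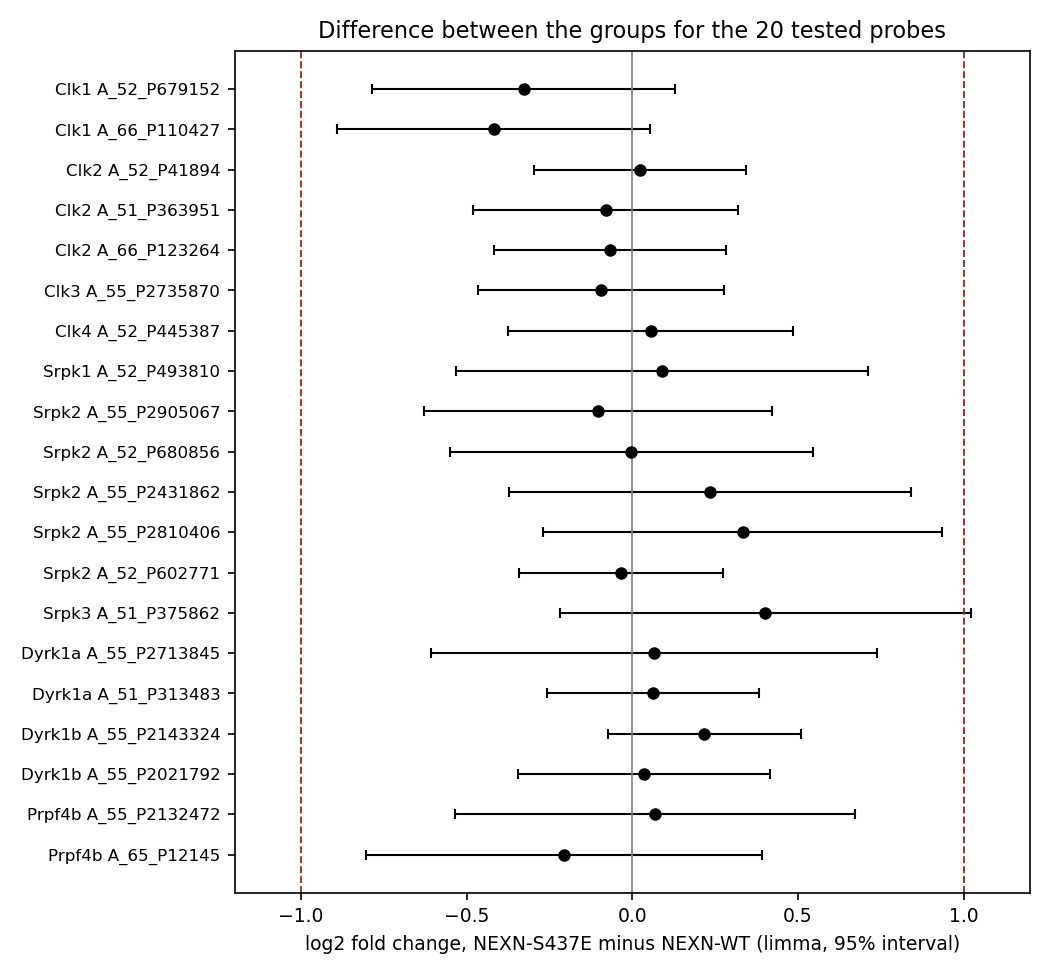
Log2 fold change (x axis, NEXN-S437E minus NEXN-WT, 3 arrays each) of the 20 tested kinase probes (y axis), with points for the limma estimate, bars for the 95% interval and dashed lines at 2-fold. Every interval includes 0, and only the interval of *Srpk3*, up to 1.02, reaches past 2-fold.

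NEXN-WT replicate 1 stood apart over all tested probes and bears on several of the kinase values. Over all tested probes its mean absolute difference from the other arrays was 0.37 to 0.55 on the log2 scale, whereas the other pairs of arrays differed by 0.19 to 0.32. Over the 20 kinase probes the separation was less clear, at 0.28 to 0.47 against 0.16 to 0.34, and these ranges overlapped. It was the array farthest from the median for 7 of the 20 kinase probes. The share over all tested probes was not counted, so the 7 is not a result about the kinases. The labelled tissue was checked against its markers, and all 9 cardiomyocyte marker genes were well above background on all 6 arrays, whereas 1 of 7 skeletal muscle marker genes was. Marker levels also differed between the groups. The summed signal of the tested cardiomyocyte marker probes, as log2 relative to the same percentile of the array, was 8.81 to 9.08 in NEXN-WT, lowest in replicate 1, and 9.27 to 9.33 in NEXN-S437E. For the 8 fibroblast marker genes it was 6.83 to 7.72, highest in replicate 1, against 6.23 to 6.34, and for T cell markers, 4 of whose 6 genes were well above background on all 6 arrays, −0.75 to −0.24 against −2.51 to −1.94. For B cell markers, 1 of whose 5 genes was well above background on all 6 arrays, it was −2.99 to −2.44 against −4.34 to −4.21. The B cell sum holds 2 probes of 2 genes and the T cell sum 8 probes of 5 genes. Each includes a gene that passed the filter without being well above background on all 6 arrays, so the filter may bear on both differences. Macrophage, endothelial and skeletal muscle sums overlapped between the groups. The part of these marker differences in the kinase values was not tested, and in whole hearts fewer cells of a type and less RNA per cell cannot be told apart.

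*Clk4* itself, the gene deleted in the cardiomyocytes of all 6 mice, was read by 1 tested probe, A_52_P445387 (chr11:51094929-51094988, mm9, plus strand). Its log2 signal was −1.003, −1.47 and −1.31 in NEXN-WT hearts and −1.16, −1.46 and −0.99 in NEXN-S437E hearts. The groups covered almost the same range, with 1 low and 1 high array in each. The difference was 0.06 (SE 0.18, 95% interval −0.37 to 0.49, adjusted p = 0.89 with limma). Its sign turned without NEXN-WT replicate 2 (−0.05) and without NEXN-S437E replicate 3 (−0.05), whereas it was 0.18 without NEXN-WT replicate 1 or NEXN-S437E replicate 2 and 0.26 with array weights. The *Clk4* probe A_52_P128262, the one alike to a *Clk2* probe, gave −5.65, −6.32 and −6.05 against −5.69, −5.48 and −5.71, and too few arrays detected it for a test. The remaining probe, A_52_P368396, gave −5.82, −6.75 and −6.75 against −5.89, −6.02 and −5.84, and was read on too few arrays for a fold change.

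*Clk1*, a CLK kinase that phosphorylates SR proteins in the nucleus, had the lowest fold changes of the 10 genes. Its intron-crossing probe A_52_P679152 (chr1:58469863-58470285, minus strand) read −0.79, −1.30 and −1.13 in NEXN-WT and −1.44, −1.64 and −1.12 in NEXN-S437E. Its second probe, A_66_P110427 (chr1:58473928-58473987, minus strand), read −0.90, −1.29 and −1.48 against −1.60, −1.91 and −1.42. On both probes NEXN-WT replicate 1 was the highest array and NEXN-S437E replicate 2 the lowest, and the groups overlapped. The differences were −0.33 (SE 0.20, adjusted p = 0.42) and −0.42 (SE 0.20, unadjusted p = 0.074, adjusted p = 0.34), both from limma. Without NEXN-WT replicate 1 they were −0.19 and −0.26, without NEXN-S437E replicate 2 −0.21 and −0.28, and with array weights −0.068 and −0.28. Without NEXN-WT replicate 3 the second probe, at −0.55, passed the unadjusted threshold but not the adjusted one (adjusted p = 0.23).

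*Clk2*, which also acts in hepatic metabolism, and *Clk3* had differences near 0. The *Clk2* probe A_66_P123264 (chr3:88980640-88980699, plus strand) read −0.46, −0.39 and −0.45 in NEXN-WT and −0.25, −0.66 and −0.59 in NEXN-S437E. Here the SD was 0.04 among NEXN-WT arrays and 0.22 among NEXN-S437E arrays, which lay on both sides of the controls. The intron-crossing *Clk2* probe A_51_P363951 read −3.72, −3.47 and −3.23 against −3.40, −3.55 and −3.71. A_52_P41894, the probe alike to one of *Clk4*, read −4.70, −4.95 and −4.84 against −4.73, −4.76 and −4.94. Between the groups the differences were −0.07 (SE 0.15), −0.08 (SE 0.17) and 0.02 (SE 0.14) in this order, and the groups overlapped on each probe. The *Clk3* probe A_55_P2735870 (chr9:57598533-57598592, minus strand) read −0.25, −0.16 and −0.47 against −0.60, −0.20 and −0.37, a difference of −0.09 (SE 0.16, adjusted p = 0.78 with limma).

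**Figure D2:**
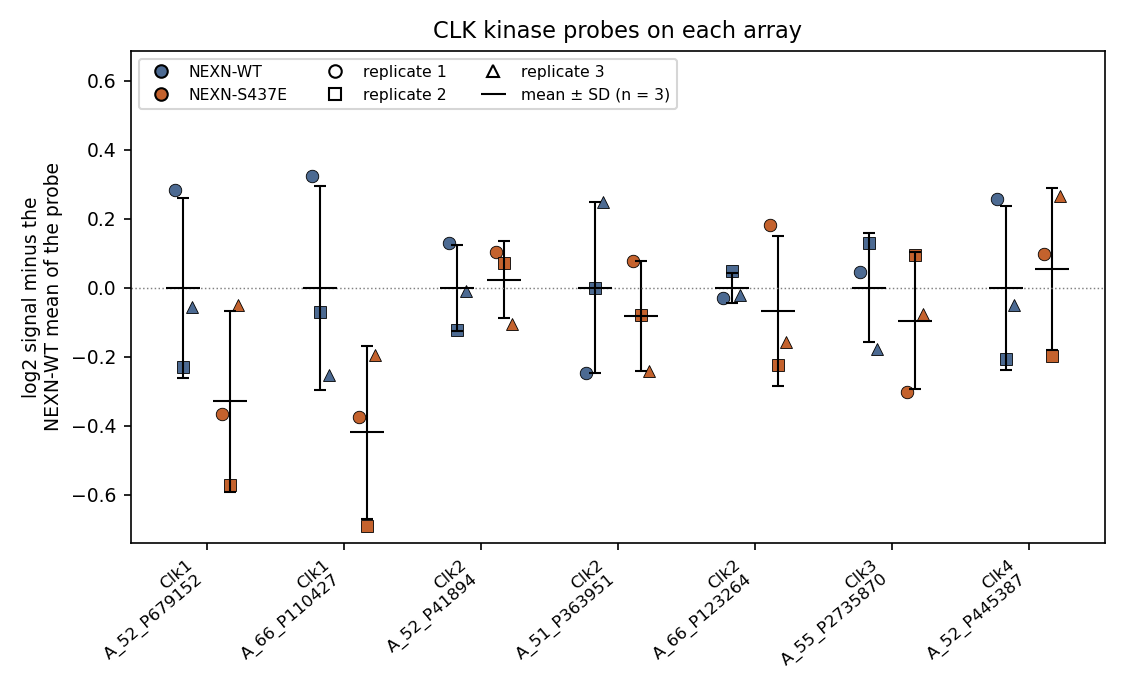
Log2 signal of each array relative to the NEXN-WT mean of the probe (y axis) for the 7 tested CLK probes (x axis), with points for arrays, shapes for replicate numbers, and horizontal marks with bars for the group mean ± SD (n = 3). The groups overlap for all 7 probes, and the NEXN-S437E means of both *Clk1* probes lie 0.33 and 0.42 below those of NEXN-WT.

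*Srpk3*, the striated muscle SR protein kinase, showed the largest positive fold change, and 1 array carried it. Its probe A_51_P375862 (chrX:71024011-71024070, plus strand) read −1.03, −0.10 and −0.04 in NEXN-WT and 0.10, −0.06 and −0.0018 in NEXN-S437E. NEXN-WT replicate 1 lay 1.01 below the mean of the other 5 arrays, which spanned a narrow range. The difference of 0.40 (SE 0.26, adjusted p = 0.46 with limma) became 0.08 (SE 0.12, 95% interval −0.21 to 0.37, adjusted p = 0.81) without that array.

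*Srpk1*, a broadly expressed SR protein kinase, read −3.04, −2.39 and −2.18 in NEXN-WT and −2.07, −2.74 and −2.53 in NEXN-S437E on probe A_52_P493810 (chr17:28726828-28726887, minus strand). NEXN-WT replicate 1 was again the lowest array. The difference of 0.09 (SE 0.27) turned to −0.16 (SE 0.22) without it, and neither value passed the test.

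*Srpk2* had the most probes of any of the 10 genes, with 5 of 6 tested. The probe A_52_P680856 (chr5:23013187-23013246, minus strand), read −0.84, −0.83 and −0.85 in NEXN-WT and −0.32, −1.27 and −0.93 in NEXN-S437E. The control SD of 0.01 stood against 0.48 in the treated group, whose arrays lay on both sides of the controls, so that the difference was −0.0032 (SE 0.23). The probe over the longest genomic span, A_52_P602771, which crosses an intron, read −1.65, −1.72 and −1.83 against −1.66, −1.89 and −1.75 and differed by −0.03 (SE 0.13). Both of these probes carry RefSeq transcripts. A_55_P2905067 read −2.91, −3.44 and −3.52 against −3.73, −3.32 and −3.13 (difference −0.10, SE 0.22), and A_55_P2431862 read −2.70, −2.41 and −3.23 against −2.94, −2.45 and −2.25 (0.23, SE 0.26). The groups overlapped on both. Leaving out NEXN-WT replicate 3 or NEXN-S437E replicate 3 put A_55_P2431862 at 0.011 or 0.088, and leaving out NEXN-WT replicate 2 or NEXN-S437E replicate 1 at 0.42 or 0.43. The fifth probe, A_55_P2810406, annotated to a cDNA without a RefSeq transcript, read −5.28, −6.02 and −6.12 against −5.42, −5.22 and −5.78 and was well above background on 5 of the 6 arrays. Its difference was 0.33 (SE 0.26). Without NEXN-WT replicate 1, its highest control, the difference was 0.60 (unadjusted p = 0.018, adjusted p = 0.28 with limma). Leaving out NEXN-WT replicate 3 gave 0.18, leaving out NEXN-S437E replicate 2 gave 0.21, and it was 0.035 with normexp background correction.

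*Dyrk1a*, a gene-dosage sensitive kinase with many nuclear substrates, read −1.52, −1.25 and −1.50 in NEXN-WT and −1.31, −1.43 and −1.34 in NEXN-S437E on A_51_P313483 (chr16:94913783-94913842, plus strand), a difference of 0.06 (SE 0.14). Its other tested probe, A_55_P2713845, had a within-group SD of 0.43 and 0.44, at −4.56, −4.67 and −5.36 against −5.30, −4.48 and −4.60, with a difference of 0.07 (SE 0.29). *Dyrk1b*, its muscle-expressed paralog, held the only one of the 20 tested kinase probes whose groups did not overlap, against 26.8% of all tested probes (14.4% with the treated group higher). That probe, A_55_P2143324 (chr7:28971620-28971679, plus strand), read −4.86, −4.70 and −4.70 in NEXN-WT and −4.53, −4.49 and −4.58 in NEXN-S437E. All 3 treated arrays lay above all 3 controls by a small step, and the difference was 0.22 (SE 0.12, 95% interval −0.07 to 0.51, adjusted p = 0.41 with limma). The neighbouring *Dyrk1b* probe A_55_P2021792 overlapped between the groups, at −3.01, −2.70 and −2.60 against −2.58, −2.90 and −2.73, and differed by 0.04 (SE 0.16).

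*Prpf4b*, the spliceosome-associated kinase, was read by 2 tested probes. Of these, A_55_P2132472 is annotated to its messenger RNA, and A_65_P12145 only to a predicted non-coding RefSeq record that was not matched to a gene in the RefSeq table used. Whether the latter reads the coding message was not determined. A_65_P12145 (chr13:34997832-34997891, plus strand) gave −1.51, −2.18 and −2.46 in NEXN-WT and −2.40, −2.37 and −2.01 in NEXN-S437E, with NEXN-WT replicate 1 lying 0.77 above the mean of the other 5 arrays. Its difference of −0.21 (SE 0.26) turned to 0.06 (SE 0.17) without that array. A_55_P2132472 gave −3.71, −4.08 and −4.65 against −4.08, −4.35 and −3.82, a difference of 0.07 (SE 0.26).

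**Figure D3:**
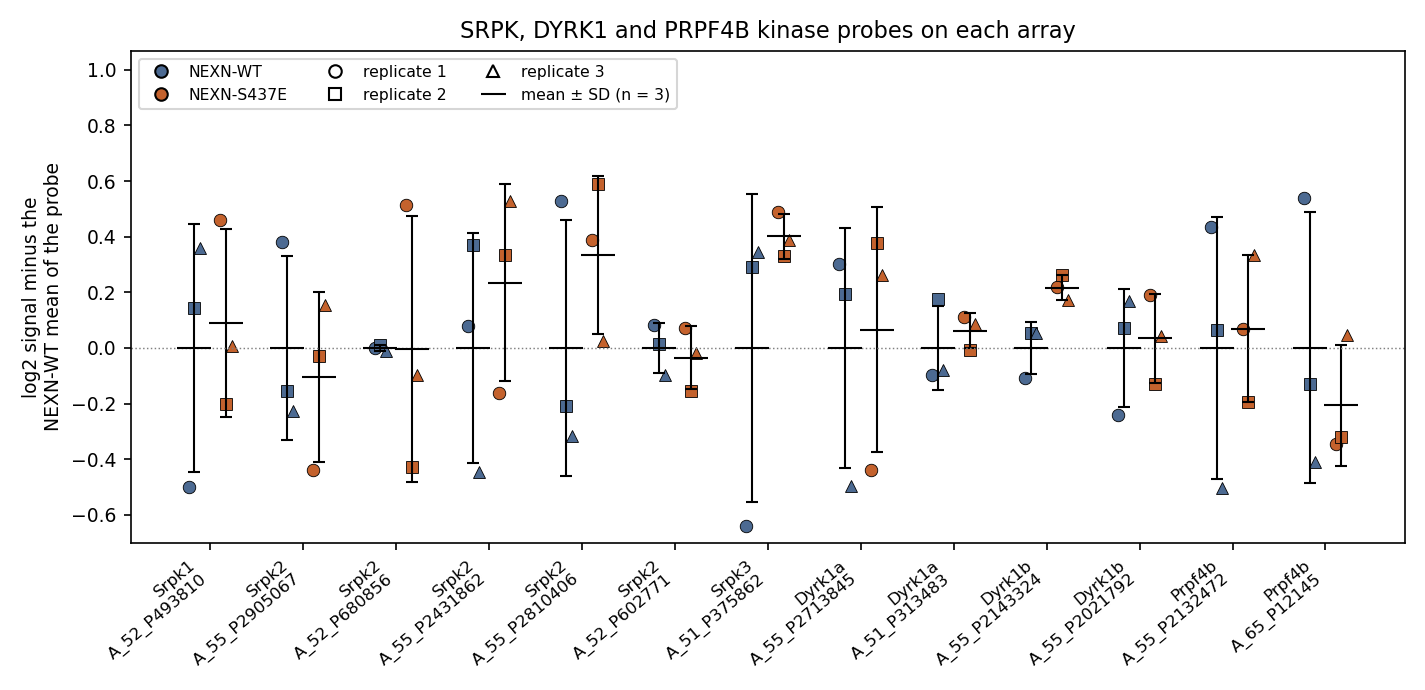
Log2 signal of each array relative to the NEXN-WT mean of the probe (y axis) for the 13 tested SRPK, DYRK1 and PRPF4B probes (x axis), drawn with points for arrays, shapes for replicate numbers and mean ± SD (n = 3). NEXN-WT replicate 1 lies far below the other arrays for *Srpk3* and above them for *Prpf4b* A_65_P12145, and only *Dyrk1b* A_55_P2143324 shows groups without overlap.

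**Figure D4:**
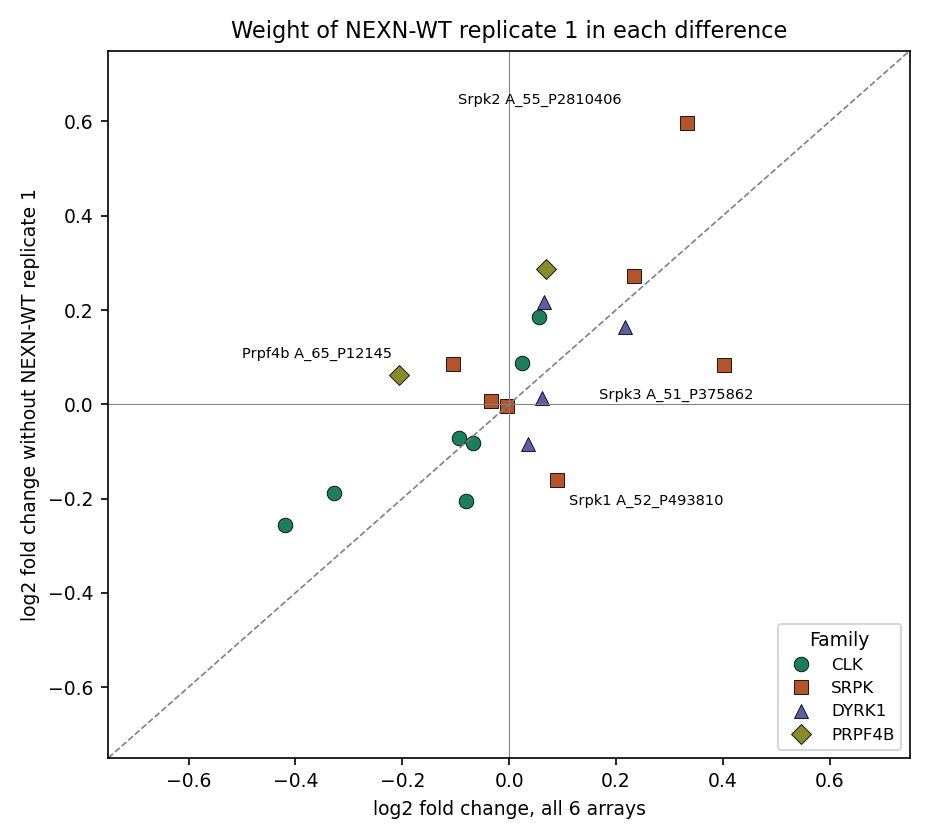
Log2 fold change of the 20 tested probes with all 6 arrays (x axis) against the same fit without NEXN-WT replicate 1 (y axis), by kinase family, with equality as the dashed line. *Srpk3* moves from 0.40 to 0.08 and *Srpk2* A_55_P2810406 from 0.33 to 0.60, while both *Clk1* probes stay negative at −0.19 and −0.26.

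Whether probes of the same gene moved differently was tested with limma's diffSplice over all 5073 genes with 2 or more tested probes. At an adjusted p of 0.05 it called 0.118% of these genes (6). None of the 6 kinase genes with several tested probes, *Clk1*, *Clk2*, *Srpk2*, *Dyrk1a*, *Dyrk1b* and *Prpf4b*, was called, and their unadjusted p ran from 0.39 for *Dyrk1b* to 0.99 for *Dyrk1a*. The test treats probes of an array as independent, although they share its RNA.

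The level of *Clk4* moved among hearts of the same group, and the likeness of other probes to it was measured as the mean absolute difference of log2 values over the 6 arrays, each probe centred on its own mean. The 5 genes most like A_52_P445387 among 21099 probes detected on all 6 arrays were *Gpld1* (0.035), *Rb1cc1* (0.047), *Twistnb* (0.051), *Pcm1* (0.051) and *Ccdc174* (0.052). Under quantile normalization 3 of these remained among the nearest 5, and none did after normexp background correction. When each probe was instead centred within its own group, which removes the difference between treatments, a *Clk1* probe came near the top. *Clk1* A_52_P679152 deviated from its group means by 0.28, −0.23 and −0.05 in NEXN-WT and by −0.04, −0.24 and 0.28 in NEXN-S437E. *Clk4* A_52_P445387 deviated by 0.26, −0.21 and −0.05 and by 0.04, −0.25 and 0.21. The mean absolute difference between them was 0.035, the rank of 6 among 21098 probes. The second *Clk1* probe, A_66_P110427, ranked 97 (0.073), within the nearest 0.46% of probes.

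No other member came so close. The remaining kinase probes detected on all 6 arrays ranked between 2166 for *Srpk2* A_52_P602771 and 19739 for *Srpk3*, or from 10.3% to 93.6% of all probes. This comparison was chosen after the values were seen, rests on 6 arrays of 1 slide and is given as a description. The rank of the *Clk1* probes was 9 and 114 with quantile normalization, and 442 and 1064 with normexp correction. With 1 array left out at a time, the first probe ranked from 5 to 181 and the second from 5 to 1380, and without NEXN-WT replicate 1 they ranked 31 and 427.

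**Figure D5:**
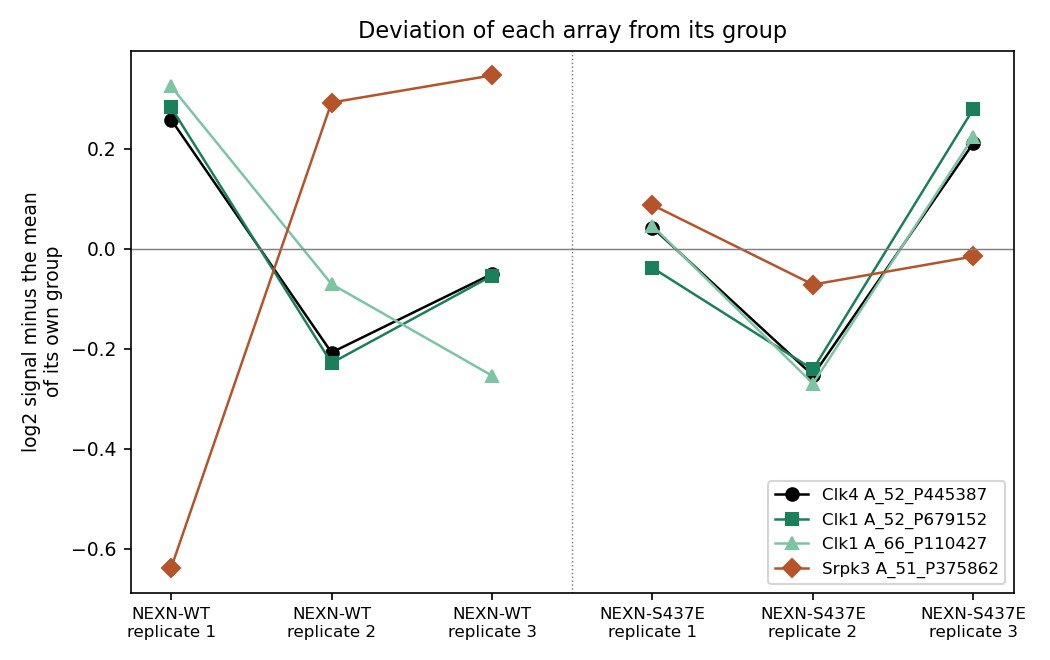
Log2 signal of each array minus the mean of its own group (y axis) for the 3 NEXN-WT and 3 NEXN-S437E arrays (x axis), for *Clk4*, both *Clk1* probes and, for contrast, *Srpk3*. *Clk4* and *Clk1* A_52_P679152 follow each other with a mean absolute difference of 0.035, whereas *Srpk3* is low on NEXN-WT replicate 1 alone.

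Genes around these kinases were read in the same fit, from 4 lists of 50 genes, of which 47 were tested. None of their probes passed the adjusted threshold, and 3 had an unadjusted p under 0.05, 2 higher and 1 lower, against the 16.4% of all tested probes given above. The median log2 fold change over these probes was −0.03. The first list holds the substrates, SR proteins and SR-like splicing regulators, with 36 probes of 16 genes and a median of −0.02. Both higher probes belong to it. *Srsf2*, an SR protein that acts in splicing and transcription elongation, read −0.33, 0.07 and −0.04 in NEXN-WT and 0.32, 0.17 and 0.26 in NEXN-S437E. *Srsf5*, another SR protein, read −1.23, −1.25 and −1.36 against −0.73, −1.14 and −0.93. The differences were 0.35 (SE 0.15) each, with adjusted p of 0.30 from limma. Without NEXN-WT replicate 1 *Srsf2* was 0.24 and *Srsf5* 0.37, and with array weights they were 0.22 and 0.29. The groups did not overlap on either probe, as on 5 of the 36 probes of the list (13.9%), a smaller share than the 26.8% of all tested probes.

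The second list, further DYRK, HIPK and transcription-linked kinases, had 22 probes of 11 genes and a median near 0. *Dyrk2*, a kinase of the same family as *Dyrk1a*, read −3.87, −4.21 and −4.48 in NEXN-WT and −5.08, −4.51 and −4.54 in NEXN-S437E. Its difference was −0.52 (SE 0.22, unadjusted p = 0.049, adjusted p = 0.30 with limma), and −0.33 without NEXN-S437E replicate 1. *Hipk4*, of smallest p after it, differed by 0.30 (SE 0.14). The third list, nuclear import receptors and phosphatases, had 18 probes of 9 genes, all with intervals within 2-fold. Its probes of smallest p were those of *Ppp1ca*, a catalytic subunit of protein phosphatase 1 (0.27, SE 0.16), and of the import receptor *Tnpo1* (−0.36, SE 0.26). Without NEXN-WT replicate 1 these were 0.15 and −0.17, and without NEXN-S437E replicate 1 *Tnpo1* was −0.10. The fourth list, cyclin L partners and speckle scaffolds, had 31 probes of 11 genes and a median of −0.08, and its probes of smallest p were those of the transcription cyclins *Ccnt2* (0.43, SE 0.21) and *Ccnt1* (−0.27, SE 0.14). Leaving out NEXN-WT replicate 2 put *Ccnt2* at 0.28, leaving out NEXN-S437E replicate 1 put it at 0.26, and normexp background correction put it at 0.074, on a probe not well above background on all 6 arrays. Without NEXN-WT replicate 3 the number of list probes at the unadjusted threshold was 9 in place of 3, where 20.3% of all tested probes passed. It was 5 without NEXN-S437E replicate 2 (10.2% of all), and 1 without NEXN-WT replicate 2 (15.5%) or NEXN-S437E replicate 3 (10.1%).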

How the data were processed

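Total RNA of each heart was labelled with Cy3 and hybridised to its own Agilent 8x60K array, all on 1 slide. The authors deposited, for each array, intensities per spot from Agilent Feature Extraction 10.7.1.1 (per the labels), background-subtracted on a linear scale, and a table of normalized log2 values, whose method is not given in the sources used here. The table's GeneSymbol column gave the probes, with coordinates on mm9.

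Control and outlier spots were left out, spots of a probe were averaged as log2, and each array's 75th percentile over the probes well above background on all 6 arrays was subtracted, because 41.9% to 47.8% of spots were detected. No spot was saturated. With intensities, the number of arrays limits the precision. Groups and replicate numbers came from the sample titles. limma 3.58.1 (lmFit, eBayes, diffSplice) in R 4.3.3 was fitted to all 22998 tested probes with Benjamini-Hochberg adjustment. The limma test was run on simulated data with independent normal noise of equal spread on all arrays. That simulation held no outlying array and no slide row effect, so it does not cover these features of the data. Slide rows were unbalanced: row 1 held every NEXN-WT array and replicate 1 of NEXN-S437E.

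All member probes are given, the tested probes by value, plus the 2 probes of smallest p per related list and the 5 genes nearest to *Clk4*. The members, lists, markers and rules were chosen with earlier results of these data known. The alternatives were other scalings and background corrections, the authors' log2 values, other filters, the methods' t-test, a replicate block, an intensity trend, array weights, slide row and each array left out. Figures used Python 3.11.15 and matplotlib 3.10.9.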

Additional observations from a re-analysis of the deposited data

How the results depend on the processing

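No kinase probe passed the adjusted p or the 2-fold rule under any alternative, although the number of calls over all probes ran from 0 (the methods' t-test and the slide row fits) to 2098 (array weights), against 34, and with an array left out from 6 to 124, the latter without NEXN-WT replicate 1. At the unadjusted p alone, 1 kinase probe passed without the filter (*Dyrk1a* A_55_P2143202, which is not well above background on any array), 1 by the methods' t-test (*Dyrk1b* A_55_P2143324) and 1 with the slide row block (*Srpk2* A_52_P680856), and 0 to 1 with an array left out. Over all tested probes the same threshold was passed by 11.9%, 13.6%, 10.1% and 10.1% to 20.3% in these fits. Related list probes at that threshold numbered 6 with the percentile over all probes, with quantile normalization and with the authors' values, where 17.01%, 15.8% and 15.8% of all probes passed, and 1 to 9 with an array left out. The percentile over all probes, which moves the median of all probes by 0.077, put the median of the import and phosphatase list at 0.052. The 1-array-out fits assume that the remaining arrays vary alike.

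Replicate numbers did not pair the arrays: deviations of same-numbered arrays correlated at −0.15, −0.03 and −0.18. With the replicate block, 12 probes in all passed the adjusted p, none of them a kinase, and 1 list probe passed the unadjusted p.

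Some signs turned with the processing, none past a threshold unless named above. Not all of these values were near 0 in the main fit, where *Tnpo1* was −0.36, *Srpk2* A_55_P2431862 0.23 and *Prpf4b* A_65_P12145 −0.21. With the percentile over all probes *Clk2* A_66_P123264 was 0.011, *Srpk2* A_52_P680856 0.074 and *Srpk2* A_52_P602771 0.043. With quantile normalization, and likewise with the authors' values, *Clk2* A_51_P363951 was 0.011, *Srpk2* A_52_P680856 0.016 and *Srpk2* A_52_P602771 0.017. With normexp *Srpk2* A_55_P2905067 was 0.020 and A_52_P680856 0.15. With array weights *Srpk1* was −0.15, *Srpk2* A_55_P2905067 0.18, *Dyrk1a* A_51_P313483 −0.056, *Dyrk1b* A_55_P2021792 −0.064, *Prpf4b* A_65_P12145 0.037 and *Tnpo1* 0.0025. With the slide row block and within slide row 1, where 1 treated array is compared with 3 controls, *Clk2* A_51_P363951 was 0.078, *Clk2* A_66_P123264 0.18, *Srpk2* A_52_P680856 0.51, *Srpk2* A_55_P2431862 −0.16, *Srpk2* A_52_P602771 0.070 and *Dyrk1a* A_55_P2713845 −0.44. The cause was not tested.

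With an array left out in turn, the signs of these probes also turned: *Clk2* A_52_P41894 (−0.037 to 0.088), *Clk2* A_51_P363951 (−0.20 to 0.043), *Clk2* A_66_P123264 (−0.19 to 0.012), *Clk3* (−0.19 to 0.0096), *Clk4* (−0.050 to 0.18), *Srpk1* (−0.16 to 0.27), *Srpk2* A_55_P2905067 (−0.23 to 0.086), *Srpk2* A_52_P680856 (−0.26 to 0.21), *Srpk2* A_52_P602771 (−0.087 to 0.026), *Dyrk1a* A_55_P2713845 (−0.18 to 0.32), *Dyrk1b* A_55_P2021792 (−0.085 to 0.12), *Prpf4b* A_55_P2132472 (−0.18 to 0.29) and *Prpf4b* A_65_P12145 (−0.41 to 0.063). Under every alternative run, the sign but not the size was kept for *Clk1* A_52_P679152 (−0.47 to −0.068), *Clk1* A_66_P110427 (−0.55 to −0.26), *Srpk3* (0.083 to 0.58), *Dyrk1b* A_55_P2143324 (0.12 to 0.29) and *Srpk2* A_55_P2810406 (0.035 to 0.60), none of which passed the adjusted p. Over all alternatives run, the named probes of the related lists ranged from 0.22 to 0.44 (*Srsf2*), 0.25 to 0.55 (*Srsf5*), −0.90 to −0.22 (*Dyrk2*), 0.24 to 0.39 (*Hipk4*), 0.13 to 0.42 (*Ppp1ca*), −0.87 to 0.0025 (*Tnpo1*), 0.074 to 0.76 (*Ccnt2*) and −0.37 to −0.19 (*Ccnt1*).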
